A study of Rattus norvegicus with 3 samples.

Results

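The growth hormone, Jak2 and STAT5 pathway and its counterpart Bcl6 were followed through 10 genes in rat kidney: Bcl6, the receptor Ghr, the kinase Jak2, the transcription factors Stat5a and Stat5b, the feedback inhibitors Socs2, Socs3 and Cish, and the products Igf1 and Igfals. The genes were selected with their measured log2 ratios in these samples known, so every value of theirs is a description and none was tested for its own sake. All 10 had a probe on the array, with 14 of the 30367 probes between them. The filter on dim probes was passed by 7 of the 10, among 14188 genes tested in the whole series, and Stat5b, Socs2 and Socs3 did not pass it.

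Kidney RNA of male Sprague-Dawley rats was compared between G200, given 200 ppm GABA in the drinking water, and the negative control, given water without it. The rats were 5 weeks old when obtained and older when the kidneys were taken, after a period of adaptation and then weeks of treatment. Both groups ate the same standard diet, and the labels call the tissue non-tumor kidney. Each of 3 Agilent arrays carried control RNA in Cy3 (green) together with G200 RNA in Cy5 (red). Ratios are given as G200 over control on the log2 scale, positive where G200 was higher. The dyes were exchanged on no array, all 3 arrays lay on 1 slide read in 1 scan, and a dye difference and an effect of GABA cannot be told apart. Over 1117 probes with at least 5 spots, the green channels differed between arrays by a median SD of 0.0323 (log2), against 0.0404 for the error of an array's mean over replicate spots, and the red channels by 0.105. The green channels therefore counted as 1 control sample and the red channels as 3 G200 samples, and the spread between control rats was not measured. Every p-value below thus covers the spread between the G200 samples and arrays only, and is no test against a group of control rats. In green, 59.8% to 62.7% of spots on an array stood well above background, and in red 56.6% to 63.0%. With so few arrays the precision of each mean is limited.

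Growth hormone binds its receptor Ghr, which activates Jak2, and Jak2 phosphorylates the STAT5 proteins, which enter the nucleus and bind a palindromic DNA motif. Igf1, Igfals, Socs2 and Cish are well known genes under this control, and the Socs and Cish proteins act back on the receptor complex to limit the signal. Bcl6 is a transcriptional repressor that binds a motif overlapping that of STAT5, and in liver its own expression is held down by growth hormone. Most circulating IGF1 and its partner, the acid labile subunit encoded by Igfals, is made in the liver, while the kidney carries the receptor and makes some Igf1 of its own.

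Bcl6 was higher in G200 on every array, Igf1 and Igfals were lower on every array, and the means of Ghr, Jak2, Stat5a and Cish after loess lay between -0.22 and 0.22, with those of Ghr and Stat5a at 0.85 and 0.39 after median centring. Stat5b, Socs2 and Socs3 were near background and were not tested. In the fit across all genes, 3 of the 7 tested members had an adjusted p under 0.05, 1 higher and 2 lower. The number was 5 after median centring, 2 with both colours required above background, and 0 when each gene's own variance over the 3 ratios took the place of the moderated one, where 2 of all genes passed. The adjusted p was under 0.05 for 37.5% of all genes tested, 11.5% being higher and 25.9% lower, and as the members were selected on this contrast nothing is read from their count. With the thresholds of the study's methods, an unadjusted p under 0.05 and a 2-fold ratio, but with limma's moderated p in place of the methods' own test, 4 genes were higher (0.0282%), Bcl6 among them, and 571 were lower (4.02%), Igf1 among them. These numbers were 776 and 263 after median centring, 3047 and 160 without normalization, 46 and 1267 with an offset of 0, 223 and 1710 from the Feature Extraction ratio, and 18 and 652 without replicate 2. The median of the 10 members was -0.09, against -0.05 over all genes tested. The number of genes past the adjusted threshold was 5316 with all arrays, 3527 without replicate 1 and 1618 without replicate 3.

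**Figure D1:**
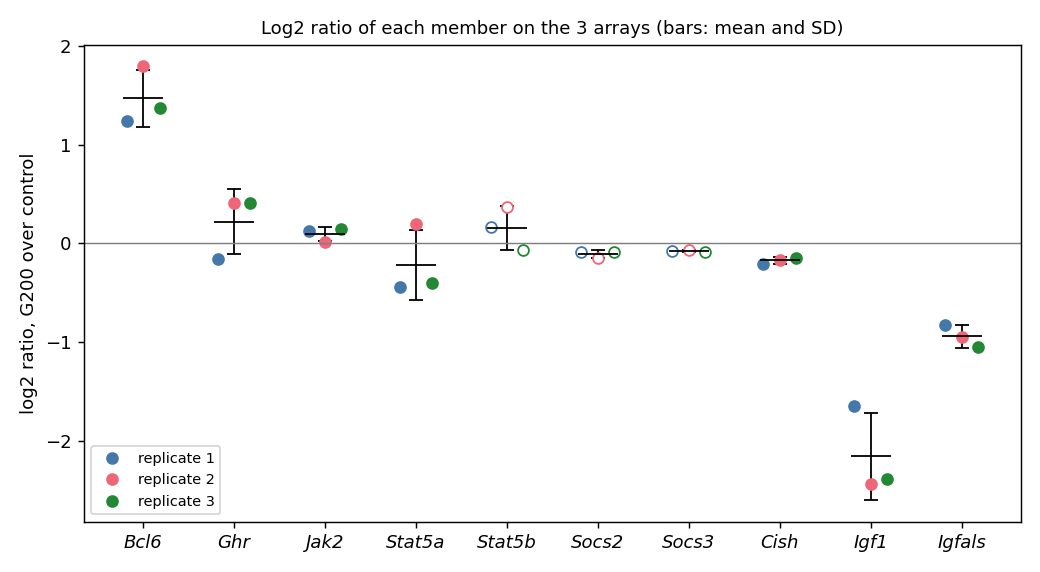
Log2 ratio of G200 over control (vertical axis) for each of the 10 members on each array, with the mean and SD over 3 arrays as bars and open circles for members that did not pass the filter on dim probes. Bcl6 lies between 1.24 and 1.79 and Igf1 between -2.44 and -1.65, while the members from Ghr to Cish lie between -0.44 and 0.41.

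The scaling of the dyes bears on every direction given here. The median of all genes was -0.05 after loess normalization within each array, 0.27 after median centring of the dyes and 0.62 with no normalization between them. Of all calls at the adjusted threshold, 30.8% were higher after loess, 80.0% after median centring and 96.3% with no normalization. Values relative to the median of all genes are therefore given beside the log2 ratios where the scaling matters.

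**Figure D2:**
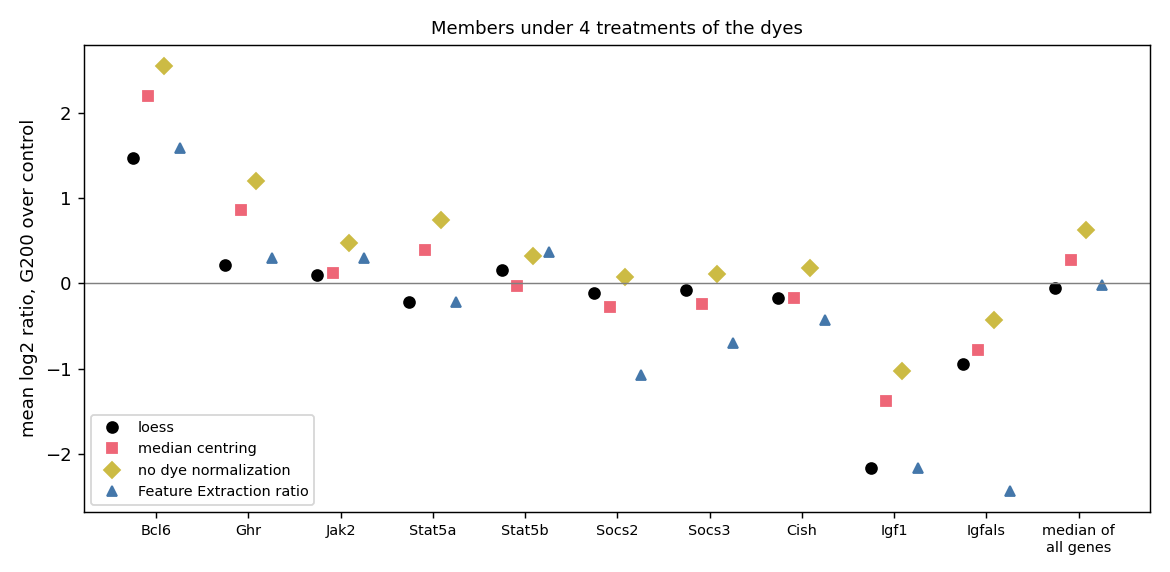
Mean log2 ratio of G200 over control (vertical axis) for each member and, at the right, the median of all genes, after 4 treatments of the dyes. Bcl6 stays above 0 and Igf1 and Igfals below 0 under each of the 4, whereas Ghr moves from 0.22 after loess to 0.85 after median centring and Stat5a from -0.22 to 0.39.

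The growth hormone receptor gene Ghr was read by 3 probes. In the order of replicates 1 to 3, used throughout, the brightest gave log2 ratios of -0.16, 0.41 and 0.40, averaging 0.22 ± 0.33 (SD, n = 3). On replicate 1 this probe was below 0 and on the others above it, and its green level differed as well, at 8.80 on replicate 1 against 9.42 and 9.41 (log2 intensity). A further probe gave 0.08, 0.35 and 0.17, and the remaining probe gave 0.32, 0.01 and 0.07. The first 2 of these were lowest on replicate 1 and highest on replicate 2, whereas the dimmest was highest on replicate 1 and lowest on replicate 2. The mean of the brightest probe was above 0 under every setting tried, moving to 0.85 after median centring and 1.20 with no normalization, and stood at 0.27 relative to the median of all genes after loess and 0.59 after median centring.

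Jak2, the kinase bound to the receptor, gave 0.12, 0.01 and 0.14, a mean of 0.09 ± 0.07 (SD, n = 3). Its probe was dim, with net green intensities of 29 to 34 and net red ones of 28 to 51, although well above background on all arrays in both colours. All 3 values were above 0, but relative to the median of all genes the mean was 0.14 after loess and -0.15 after median centring, so its direction turned with the scaling.

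Stat5a and Stat5b are the paired transcription factors that carry the signal from Jak2 to the nucleus. Stat5a was read by 10 spots per array and gave -0.44, 0.19 and -0.40, a mean of -0.22 ± 0.35 (SD, n = 3). The 10 spots ran from -0.63 to -0.29 on replicate 1, from 0.03 to 0.30 on replicate 2 and from -0.53 to -0.26 on replicate 3. Replicate 2 thus stood above the others with no overlap between spots, and the SD over spots of an array was 0.07 to 0.10. Net green intensities were 305.75, 358.65 and 328.45 and net red ones 616.8, 602.85 and 481, where replicate 2 does not stand apart in red. After normalization the green level was 8.94, 9.07 and 9.01 and the red level 8.50, 9.26 and 8.61. Net intensities are not scaled between arrays, and the median net red over spots other than controls was 54.5, 29.5 and 39. The cause of the separation of replicate 2 was not tested. The mean lay below 0 after loess but at 0.39 after median centring and at 0.74 without normalization, or at -0.17 and 0.12 relative to the median of all genes after loess and after either of the others. Stat5b was well above background in neither colour on any array, with net green intensities from 15 to 21.5 and net red ones from 8 to 21. Its ratios of 0.17, 0.37 and -0.07 rest on such signals, and no fold is given.

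**Figure D3:**
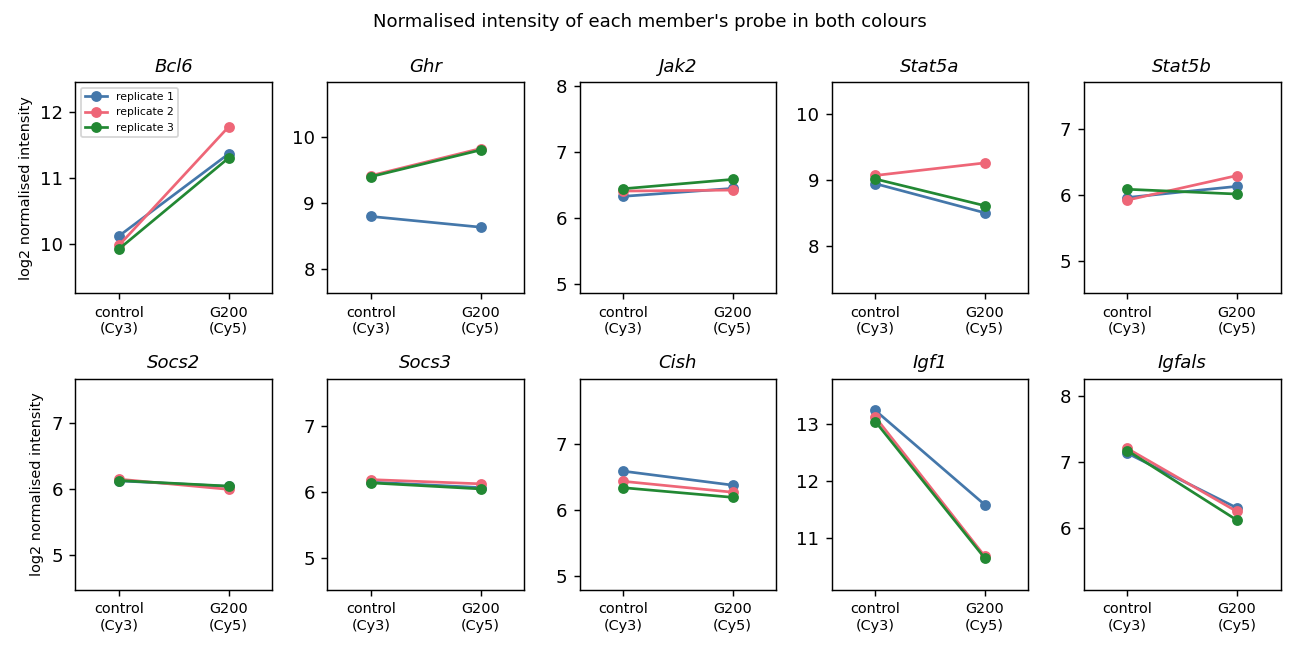
Normalised log2 intensity of each member's probe in the control channel (left) and the G200 channel (right) of the 3 arrays, 1 panel per gene and a line per array. Control levels of Stat5a and Igf1 lie close together on the arrays after normalization, and the lines part in the G200 channel.

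The feedback inhibitors were near the background of the arrays. Socs2, which limits growth hormone receptor signalling, had 10 spots per array, of which 10, 10 and 7 entered. Of these 2, 3 and 2 were well above background in the control channel, and 1, 0 and 0 in the G200 channel. Its log2 ratios were -0.09, -0.15 and -0.08, and no fold is given. Socs3, an inhibitor of Jak kinases induced by several cytokines, was well above background on 2 arrays in green and on none in red, with ratios of -0.08, -0.06 and -0.09. With no normalization between the dyes its mean was 0.11, on the other side of 0, and no fold is given for it either.

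Cish, the cytokine-inducible inhibitor named for its SH2 domain, had 2 probes past the filter. The brighter gave -0.21, -0.16 and -0.14, a mean of -0.17 ± 0.03 (SD, n = 3), and the other gave -0.35, -0.15 and -0.32, a mean of -0.27 ± 0.11. Both probes were below 0 on every array, with the red channel well above background on 2 arrays for the brighter probe and on 1 for the other. With no normalization between the dyes the brighter probe stood at 0.18, and relative to the median of all genes it was at -0.12 after loess and -0.44 after median centring. Net green was 41, 36 and 31, and net red 49, 19 and 20, close enough to background that the log2 ratio is compressed by the offset of 50. With an offset of 0 the mean was -0.45.

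Igf1 encodes the growth factor through which much of the action of growth hormone is exerted. On the brighter of its 2 probes the net green intensities were 6117, 6316 and 5696.5 and the net red intensities 6092.5, 1749.5 and 2317.5. After normalization the log2 ratios were -1.65, -2.44 and -2.39, a mean of -2.16 ± 0.44 (SD, n = 3), or 0.224 times the control. The other probe gave -1.30, -2.22 and -2.23, a mean of -1.91 ± 0.53. Both probes were lower on every array, with replicate 1 nearest to the control on both, and the control levels of the brighter probe stayed within 13.04 and 13.24 (log2 intensity). Igf1 was below 0 under every setting tried, at -2.11 relative to the median of all genes after loess and -1.65 after median centring. After loess with the offset of 50, 118 of the 14188 genes tested had a lower mean.

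Igfals encodes the acid labile subunit that holds IGF1 in its circulating complex. Net green intensity was 74, 83.5 and 79.5, net red was 53, 18 and 22, and red was well above background on 2 of the 3 arrays. The log2 ratios were -0.83, -0.95 and -1.05, a mean of -0.94 ± 0.11 (SD, n = 3), or 0.519 times the control. All 3 lay below 0. Net red was highest on replicate 1, and with signals so close to background the offset of 50 compresses the ratios, so their spread does not measure how alike the arrays were. The size depended on the treatment of dim signals, at -1.87 with an offset of 0 and -2.43 from the deposited Feature Extraction ratio, and on the scaling of the dyes, at -0.78 after median centring and -0.43 with no normalization, while the direction was the same under every setting tried.

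Genes of the liver were lower in G200 as well, on the same arrays as Igf1 and Igfals. Of 20 liver marker genes, 18 were tested. All 18 were well above background in both colours on all arrays, had an adjusted p under 0.05 and were lower on every array. Of all genes 25.9% were lower at that threshold. With robust estimation of the variance in eBayes 1 of the 18 passed, 15 passed after median centring or with no normalization and 14 without replicate 2, while the direction was lower for all 18 under every setting tried. The rest of the list, Cps1 and Tat, were well above background in neither colour on any array. The summed normalised intensity of the 18 genes was 222908, 208150 and 236916 (green) against 66064, 21919 and 9752 (red) on replicates 1, 2 and 3. The gene with the brightest probe in green, given for each list, was Ttr, the carrier of thyroxine, with log2 ratios of -1.86, -3.80 and -5.49. The medians of the list were -1.59, -3.14 and -4.19, and each of the 18 genes was nearest to the control on replicate 1 and farthest from it on replicate 3.

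Igf1 shared part of that pattern, and after loess Igfals was nearest to the control on replicate 1. The order of Igfals on replicates 2 and 3 (-0.95 and -1.05) is not read, as its net red there was 18 and 22, close to background. For Igf1, replicate 1 was nearest to the control too, but replicates 2 and 3 were alike (-2.44 and -2.39), and its SD of 0.44 was below the smallest among the 18 liver markers (0.65, the largest being 1.82). Markers lower than Igf1 numbered 7 on replicate 1, 15 on replicate 2 and 17 on replicate 3. Igfals, whose red signal was close to background so that the offset compresses its ratio, is not ranked among the markers. Whether liver RNA was present in the control kidney RNA was not tested, so the ratios of Igf1 and Igfals, and those of Obp3 and Cyp2c11 among the STAT5 targets, cannot be assigned to kidney cells from these values. Fewer cells of a type and less RNA per cell cannot be told apart in tissue RNA.

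**Figure D4:**
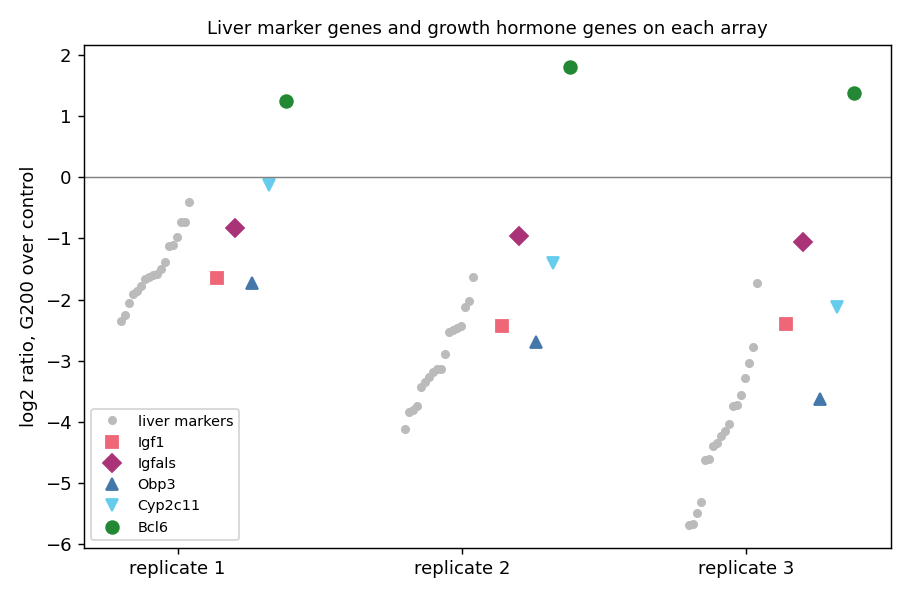
Log2 ratio of G200 over control (vertical axis) on each array for the 18 tested liver marker genes (grey, sorted within the array) and for Igf1, Igfals, Obp3, Cyp2c11 and Bcl6. The median of the liver markers is -1.59 on replicate 1 and -4.19 on replicate 3. Igfals, whose ratios the offset of 50 compresses, lies between -1.05 and -0.83. Bcl6 lies between 1.24 and 1.79.

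Bcl6, the repressor known from germinal centre B cells and, in liver, from the response to growth hormone, was read by 1 probe. Net green intensity was 690, 691 and 628, net red was 5076, 3785.5 and 3573, and no spot was saturated or marked as an outlier. The log2 ratios were 1.24, 1.79 and 1.38, a mean of 1.47 ± 0.29 (SD, n = 3), which is 2.77-fold. The red levels were 11.37, 11.78 and 11.30 (log2 intensity) and the green levels 10.13, 9.98 and 9.93, the green ones counting as 1 control sample. No other of the 14188 genes tested had a higher mean after loess with the offset of 50, and Bcl6 was selected with such values known. Under the settings tried its mean was between 1.31 and 2.55, and relative to the median of all genes between 1.36 and 1.93.

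**Figure D5:**
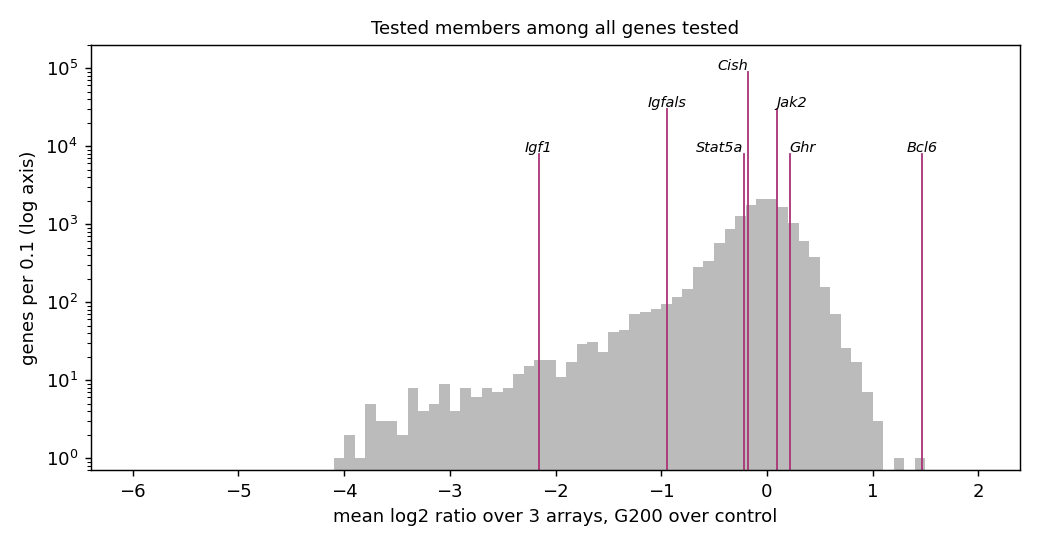
Number of genes (vertical log axis) by mean log2 ratio of G200 over control (horizontal axis, steps of 0.1) for the 14188 genes tested, with lines at the 7 tested members. Bcl6, at 1.47, lies at the upper end, Igf1, at -2.16, and Igfals, at -0.94, lie in the lower tail, and Ghr, Jak2, Stat5a and Cish lie near the centre.

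Among markers of the immune cells that use Bcl6, Cxcr5, Icos and Cd3e were well above background in neither colour on any array. Of 5 macrophage and leukocyte markers 3 were tested and none passed the adjusted threshold, with a list median of 0.10 and Cd68 the brightest (-0.11). With no normalization 3 passed as higher, and 1 without replicate 2, where 8011 and 1624 of all 14188 genes tested were higher. The summed levels of the 3 markers were 498, 382 and 443 (green) against 559, 365 and 453 (red). The part of these cells in the ratio of Bcl6 was not tested.

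The 5 genes nearest to Bcl6 by the distance between their 3 log2 ratios included Mrgprf (distance 0.495), Dcn (1.10) and Umod (1.16). The other 2 had no symbol in the RefSeq table used here. Mrgprf and those 2 were not well above background in green on any array, so their distances are not exact. Mrgprf, an orphan receptor gene, thus passed the filter through red alone. Its level in G200 after loess was at least 2.34-fold higher, from channel means after scaling between arrays that are open to dye bias. Dcn, the matrix proteoglycan decorin, gave 1.12, 0.71 and 1.44. Umod, the main protein of normal urine, made in the thick ascending limb, gave 0.98, 0.81 and 0.82. After loess Bcl6 was lowest on replicate 1 and highest on replicate 2, while Dcn and Umod were lowest on replicate 2. In net intensities Bcl6 was highest on replicate 1, with red at 5076, 3785.5 and 3573 and green at 690, 691 and 628. Net intensities are not scaled between arrays, so its order over the arrays is given for loess only. These genes were picked by their ratios, which are given as a description.

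Around the members, 83 further genes of the pathway were listed by known role in 8 lists. Of these 52 were tested and 20 passed the adjusted threshold, 4 higher and 16 lower, which is 38.5% against 37.5% of all genes, with a median of -0.07 against -0.05. After loess with all arrays the share past the threshold was thus close to that of the whole array. Without replicate 3, 10 of the 52 passed, where 11.4% of all genes did. With no normalization 24 of the 52 passed, where 58.6% of all genes did. Of the genes given below as not passing, Prlr, Sirpa, Ptpn6, Socs5, Stat3, Igf2r, Ncor1 and Ccnd1 passed as higher after median centring and with no normalization, and Cd44 with no normalization.

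Among the receptor and kinase partners 9 of 15 were tested, 3 were lower and none higher at the adjusted threshold, with a median of -0.10. The lower genes were the adaptor Grb2 (-0.49, adjusted p = 0.00938), the cytokine receptor kinase Jak3 (-0.40, adjusted p = 0.0167) and the insulin receptor substrate Irs2 (-0.31, adjusted p = 0.0223), each below 0 on all 3 arrays, and each above 0 after median centring of the dyes (0.17, 0.21 and 0.01). Relative to the median of all genes they stayed lower there, at -0.10, -0.06 and -0.26. Jak3 passed in the opposite direction with no normalization (0.56). Without replicate 3 none of them passed, Jak3 and Irs2 also missed the threshold with the Feature Extraction ratio, and Irs2 without replicate 2. The prolactin receptor Prlr (-0.24, 0.23 and 0.13) and the inhibitory receptor Sirpa (0.11, 0.01 and 0.16) did not pass.

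Of the phosphatases and other brakes 5 of 7 were tested, with 2 lower, none higher and a median of -0.10. Ptpn1, the phosphatase PTP1B that acts on Jak2, gave -0.53, -0.52 and -0.52 (adjusted p = 0.00267) and was among the steadiest genes named here. Pias3, an inhibitor of STAT proteins, had a mean of -0.22 (adjusted p = 0.0462) and missed the threshold with any 1 array left out, with an offset of 0, with the Feature Extraction ratio and with both colours required above background. Both were above 0 after median centring (0.10 and 0.16) and below the median of all genes there (-0.17 and -0.11). Ptpn6 (0.05, -0.12 and 0.06) and Ptpn2 (-0.20, 0.07 and -0.17) did not pass. Of 5 other Socs genes only Socs5 was tested, at 0.25, 0.10 and 0.35, and it missed the threshold (adjusted p = 0.0548), though it passed without replicate 2.

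Of the other STAT genes 4 of 5 were tested, with 1 higher, 1 lower and a median of 0.05, where 11.5% of all genes were higher and 25.9% lower. The lower gene was Stat2, a factor of the interferon response, at -0.44, -0.27 and -0.26 (adjusted p = 0.0162). Stat2 stood at 0.31 after median centring, 0.04 above the median of all genes there, and passed in the opposite direction with no normalization (0.66). It did not pass with the Feature Extraction ratio, without replicate 1 or without replicate 3. Stat3 (0.08, 0.23 and 0.23) and Stat6 (-0.04, -0.11 and -0.09) did not pass, though Stat6 was lower with the Feature Extraction ratio (-0.46).

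The IGF system beyond Igf1 had 9 of 15 genes tested, 2 lower, none higher and a median of -0.13. Igfbp4, a binding protein that restrains IGF action, gave -0.90, -1.36 and -1.36, a mean of -1.21 (adjusted p = 0.00119), and did not pass after median centring or with no normalization, though below 0 there too. Igfbp5, a further binding protein, gave -0.83, -0.17 and -0.42 (adjusted p = 0.0312), and was at 0.12 after median centring, which is -0.15 relative to the median of all genes. It did not pass with an offset of 0, with the Feature Extraction ratio, without replicate 1 or without replicate 3. The order of the arrays differed between these genes, replicate 1 being nearest to the control for Igfbp4, as for Igf1, and farthest for Igfbp5. Igfbp3, the main carrier of IGF1 in blood, gave 0.71, -0.79 and -0.42, so that its arrays disagreed in sign, and Igf2r gave 0.14, -0.24 and 0.18. Neither passed the threshold, and Igfbp3 passed as lower without replicate 1 (-0.60).

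Among Bcl6 partners and relatives 9 of 13 were tested, 1 was higher and 1 lower, and the median was -0.02. The corepressor Ctbp1 was higher, at 0.27, 0.27 and 0.44 (adjusted p = 0.0160), though not past the threshold with an offset of 0, from the Feature Extraction ratio, with the mean of its probes or without replicate 3. Zbtb7a, a repressor of the same protein family as Bcl6, was lower, at -0.71, -0.72 and -0.72 (adjusted p = 0.00117), but stood at -0.02 and did not pass after median centring, was above 0 with no normalization between the dyes (0.33), and was at -0.33 with the mean of its probes. Relative to the median of all genes it lay at -0.29 under both scalings. The corepressor Ncor1 (-0.05, 0.12 and 0.04), through which Bcl6 is known to act, did not pass.

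Of 14 genes known to be repressed by Bcl6 in lymphocytes 9 were tested, 3 being higher and 2 lower, where 11.5% of all genes were higher and 25.9% lower, and their median was -0.04. Cxcl10, a chemokine induced by interferon, gave 0.86, 0.43 and 0.76 (adjusted p = 0.00432), and Id2, an inhibitor of basic helix-loop-helix factors, gave 0.64, 0.38 and 0.70 (adjusted p = 0.00477). Cdkn1a, the cell cycle inhibitor p21, gave -1.52, -0.60 and -0.98 (adjusted p = 0.00608). It was above 0 with no normalization between the dyes (0.10), where it lay at -0.52 relative to the median, and after median centring it was below 0 and did not pass. Cd44 (mean -0.08) and Bcl2 (mean -0.10) did not pass.

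Other genes known as STAT5 targets had 8 of 11 tested, 5 lower, none higher and a median of -0.50, where 25.9% of all genes were lower. Obp3, a lipocalin known in male rat liver, gave -1.73, -2.70 and -3.63 (adjusted p = 0.00258). Cyp2c11, the male-specific liver cytochrome under growth hormone control, gave -0.13, -1.40 and -2.12 (adjusted p = 0.0346), and passed neither without replicate 2 or 3 nor with robust variance estimation, the Feature Extraction ratio, median centring or no normalization. Both were nearest to the control on replicate 1 and farthest on replicate 3, the order of the liver markers, whose part in these ratios was not tested. Onecut1, a liver-enriched factor, was not well above background in red on any array, so that it passed the filter through green alone. After loess the control was at least 1.58-fold higher. Its adjusted p of 0.00310, by which it counts among the 5 lower, rests on those red values, and nothing is read from it. With no normalization its mean was -0.39, a smaller difference than that bound, and did not pass. Myc was lower at -0.72, -0.49 and -0.72 (adjusted p = 0.00251), and with no normalization it stood at -0.04 and did not pass. Ccnd1 (0.12, 0.02 and 0.52) did not pass, nor did Pim1 (0.00, -0.15 and -0.32), which was not well above background in red on any array. Pim1 was at 0.07 with no normalization and at -1.35, past the threshold, with the Feature Extraction ratio, and no fold is given.

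All 12 kidney markers, the check on the labelled tissue, were tested and were well above background in both colours on all arrays, with 5 higher, none lower at the adjusted threshold, a median of 0.31 and Umod the brightest. Of all genes 11.5% were higher. The number of kidney markers higher was 9 after median centring (median 0.84, or 0.57 relative to all genes) and 12 with no normalization. It was 3 without replicate 1 or 2 and 1 without replicate 3, and 1 marker was lower without replicate 2. Of all 14188 genes tested, 4991 were higher after median centring and 8011 with no normalization. Without replicates 1, 2 and 3 in turn, 867, 1624 and 185 of all genes were higher. The following sums are those of the kidney markers. Their summed levels were 90364, 75251 and 83166 (green) against 113193, 96448 and 97317 (red).

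The growth hormone genes were read beside lists of other states and tissues too. Of 11 immediate early genes 7 were tested and 6 were lower, where 25.9% of all genes were lower, with a median of -0.45 that turned to 0.06 after median centring (-0.21 relative to all genes), and 2 were lower without replicate 3. After median centring 1 was lower, and with no normalization none was lower and 2 were higher. Across all 14188 genes tested, 4991 were higher and 1247 lower after median centring, and 8011 and 304 with no normalization. With the Feature Extraction ratio or without replicate 2 the number of immediate early genes lower was 4. Junb (-0.45) was the brightest, and the summed levels were 3433, 2774 and 3205 (green) against 2438, 1948 and 2022 (red). Of 6 glucocorticoid response genes 5 were tested, 1 being higher and 1 lower, with a list median of 0.10. After median centring 3 were higher and none lower, with a median of 0.61 (0.34 relative to all genes), and with no normalization 4 were higher and none lower. None was higher with an offset of 0, the Feature Extraction ratio, both colours required above background, or without replicate 1 or 2. The lower one and the brightest was Errfi1, at -0.52, -1.05 and -1.43. Of 8 genes of the FOXO and fasting response 5 were tested and 1, Irs2, was lower. The median of -0.13 was 0.10 after median centring (-0.17 relative to all genes), and the brightest, G6pc1, gave 0.88, -0.20 and -0.27. None was lower after median centring, with no normalization, with the Feature Extraction ratio, or without replicate 2 or 3. Without replicate 1, 2 were lower, and with no normalization 1 was higher.

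Fibroblast markers, of which Dcn is 1, had 5 of 5 tested, 2 higher, none lower and a median of 0.05. After median centring all 5 were higher, with a median of 0.80 (0.53 relative to all genes), as were all 5 with no normalization. Without replicate 3, 1 was higher. In the same order, 4991, 8011 and 185 of all 14188 genes tested were higher. The list had Col3a1 (0.05) as the brightest and summed levels of 5255, 3930 and 4342 (green) against 5659, 3746 and 5862 (red). The fat list had 3 of 5 tested and 1 lower, Pparg (-0.39), its brightest gene, and the adrenal list 2 of 5 and 1 lower, Cyp21a1 (-0.42), likewise. Pparg missed the threshold with any 1 array left out, with an offset of 0 and with the Feature Extraction ratio, and the adrenal list had none lower without replicate 3. Neither list had a lower gene after median centring or with no normalization, and both medians, -0.06 and -0.13, were above 0 after median centring (0.04 and 0.20) and below the median of all genes there (-0.23 and -0.07). In the adrenal list 1 gene was higher under both of these settings, and in the fat list 1 with no normalization. The part of these lists in the ratios of the 10 members was not tested.

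Promoter windows were searched for the STAT motif TTCNNNGAA, whose letters read the same on both strands, and for the Bcl6 core TTCCTAGAA on either strand, which contains the STAT motif. The RefSeq table of the rat assembly GRCr8 held a window for 9 of the 10 members (not Socs2), and the 250 bases before the start were used. Only the window of Cish held a STAT motif, 4 times, and 1 of the 4, TTCTAGGAA, is the Bcl6 core on the other strand. Of 33465 windows of the same length 7.67% held at least 1 STAT motif, 2 windows held 4, and 0.323% held the Bcl6 core. The 3 windows are shown because Cish carries the motifs, while Bcl6 and Igf1 carry none. After loess with the offset of 50, Bcl6 and Igf1 had the largest ratios among the members. Capitals mark the STAT motif. They are Cish on the plus strand at chr8:116850719-116850968, Bcl6 on the plus strand at chr11:90358503-90358752 and Igf1 on the plus strand at chr7:24172282-24172531, all upstream of the annotated start.
Cish: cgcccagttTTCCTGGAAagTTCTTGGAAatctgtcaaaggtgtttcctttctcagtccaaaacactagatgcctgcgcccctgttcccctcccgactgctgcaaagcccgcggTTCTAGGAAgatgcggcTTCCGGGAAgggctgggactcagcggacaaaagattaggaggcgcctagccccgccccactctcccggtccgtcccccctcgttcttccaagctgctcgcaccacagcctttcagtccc
Bcl6: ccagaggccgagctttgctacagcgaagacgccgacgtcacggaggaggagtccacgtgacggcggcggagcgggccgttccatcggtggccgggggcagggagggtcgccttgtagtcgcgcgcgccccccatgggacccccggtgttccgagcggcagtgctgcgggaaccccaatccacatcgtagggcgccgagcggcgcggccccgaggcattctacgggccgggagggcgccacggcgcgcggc
Igf1: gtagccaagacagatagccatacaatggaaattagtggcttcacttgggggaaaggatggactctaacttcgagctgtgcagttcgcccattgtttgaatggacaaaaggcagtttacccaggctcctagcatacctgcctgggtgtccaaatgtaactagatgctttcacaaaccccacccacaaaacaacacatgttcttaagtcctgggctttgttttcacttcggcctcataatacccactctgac
The matches in Cish begin 241, 230, 136 and 119 bases before the start. Cish itself had log2 ratios of -0.21, -0.16 and -0.14 in kidney, and Igf1, whose window holds no match, had -1.65, -2.44 and -2.39. A match is a description of letters, and its absence says only that these letters are not in the window.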

How the data were processed

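The 3 arrays held control RNA in Cy3 and G200 RNA in Cy5. The authors deposited the output of Agilent Feature Extraction (11.5.1.1 per the file headers, 9.3.2.1 in the submitters' processing notes, and the methods name a further version), with uncorrected median intensities of spots and local background for each colour. The deposited tables also hold a log10 ratio of red over green, which the authors made with background subtraction and dye normalization, and it served here as an alternative. The labels and methods differ on the labelling kit and on the number of rats in a group.

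The intensities were corrected with limma 3.58.1 in R 4.3.3 (normexp, offset 50, on all 44254 spots) and normalized by loess within each array, with the 1377 control spots at weight 0. Outlier spots (635, 736 and 945) were left out and replicate spots averaged. Of 30367 probes, 18355 (60.4%) matched a symbol in the RefSeq table of GRCr8 by accession. The array was designed on an older build, so its coordinates are not used here. A probe was kept where at least 0.5 of its spots rose well above background in the same colour on each of the 3 arrays (15656 probes), and the brightest stood for its gene. For each gene, lmFit and eBayes of limma gave a two-sided test of its mean log2 ratio against 0, and p-values were adjusted over the 14188 genes by Benjamini-Hochberg. The array pairs its control and G200 channels. Bounds of dim probes, channel levels and the spread of the channels use values after loess and Aquantile scaling between arrays. Summed levels use intensities after loess alone.

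The members and lists were chosen with earlier results of these data known. Named genes were the members, in each pathway list up to 4 genes of largest size past the adjusted threshold and up to 2 others, taken by brightness, the 5 genes nearest to Bcl6 by Euclidean distance, and the gene with the brightest probe in each marker list. Further markers are named after seeing their values. Some genes of the lists are not reported here singly, and counts over a list include them. All steps were tested on simulated data. Alternatives were the dye normalization, the offset, the filter, the probe rule, the variance model, the test and each array left out.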

Additional observations from a re-analysis of the deposited data

How the results depend on the processing

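Bcl6 was above 0 and Igf1 and Igfals below 0 under every setting tried. Bcl6 moved to 2.20 after median centring of the dyes and 2.55 with no normalization between them, and Igf1 to -1.38 and -1.03, and leaving out 1 array gave 1.31 to 1.58 for Bcl6 and -2.41 to -2.02 for Igf1. Over the 10 members, 72 values under alternatives lay within 1 SD of the main value and 28 did not. Leaving out 1 array cannot move a mean by as much as 1 SD. The filter settings left the values of the members unchanged, so the number within 1 SD does not measure stability. Stat5a was above 0 after median centring and without normalization, Stat5b was below 0 after median centring, and Socs2, Socs3 and Cish were above 0 without normalization (0.07, 0.11 and 0.18). Of the named pathway genes past the threshold, 7 turned from lower to above 0 with median centring: Grb2 (0.174), Jak3 (0.212), Irs2 (0.00563), Ptpn1 (0.0981), Pias3 (0.159), Stat2 (0.310) and Igfbp5 (0.122). With no normalization these were at 0.524, 0.562, 0.356, 0.448, 0.510, 0.660 and 0.473, Jak3 and Stat2 passing as higher, and Zbtb7a (0.326) and Cdkn1a (0.101) turned as well. Of those short of the threshold, Ptpn6, Ptpn2, Igfbp3 and Cd44 turned to 0.627, 0.0778, 0.560 and 0.274 with median centring and to 0.977, 0.428, 0.911 and 0.624 with no normalization, and Ptpn6 passed as higher under both and Cd44 under the latter. With no normalization Stat6 (0.157), Bcl2 (0.334) and Pim1 (0.0738) turned too. Ptpn6 (0.0728) and Igf2r (-0.0240) turned with the Feature Extraction ratio and Ncor1 (-0.156) with the mean of its probes. With 1 array left out Prlr ran from -0.0587 to 0.178, Ptpn6 from -0.0381 to 0.0562, Igfbp3 from -0.602 to 0.146, Igf2r from -0.0524 to 0.160 and Ncor1 from -0.00983 to 0.0795. Both dye settings shift the median of all genes upward, to 0.27 and 0.62. In all, 37 values of named pathway genes under alternatives turned in sign, 248 kept their direction and side of the threshold, 35 kept their direction but no longer passed and 18 kept it and newly passed. The cause was not tested.

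The number of genes past the adjusted threshold, 5316, was 8315 with no normalization and 1618 to 4976 with 1 array left out, and fewer arrays enter those fits. For the pathway lists the number was 20, and 10 to 18 with 1 array left out. The methods' t-test is between groups and was run here on the 3 array ratios against 0, which gave 2 genes after Benjamini-Hochberg adjustment (4475 at an unadjusted p under 0.05), 1 of them in the pathway lists and 0 among the members (4 members at an unadjusted p under 0.05). The fit of separate channels with no replicate block gave 4094 genes, 16 of them in the pathway lists. The slide as a block was not run, because all arrays lay on 1 slide. Signals near background limit Jak2, Stat5b, Socs2, Socs3, Cish and Igfals, and the offset and the Feature Extraction ratio change their sizes.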
